A study of Saccharomyces cerevisiae with 6 samples.

Results

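Nucleotides reach yeast RNA and DNA by 2 routes, and 40 genes that carry both were followed here: the enzymes that build purines and pyrimidines from small precursors, the enzymes and permeases that take up and reuse ready-made bases, and the kinases and other enzymes that make DNA precursors. They were picked by function and by the gene symbol of their probe set. A named probe set was found for 39 of the 40, 1 per gene, among 5498 Saccharomyces cerevisiae probe sets on the array. ADE5,7 was not analysed here.

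Gene expression was measured with 1-colour Affymetrix Yeast Genome 2.0 arrays on 3 biological replicates of each of 2 groups, and the groups are called as in the labels. Both came from haploid MATa W303-1A cells that carry ade2-1 and ura3-1, mutations in purine and in pyrimidine synthesis. These cells also carry can1-100, trp1-1 and his3-11,15 and a mutation in leu2, a gene of leucine synthesis. WT cells carried the plasmid pRS413::GAL-YRA1, with the intron-containing YRA1 gene behind a galactose-inducible promoter, and YRA1∆i cells carried pRS413::GAL-YRA1∆i, with the intron-less gene, which is overexpressed. All 6 cultures were grown in minimal medium with raffinose and then given 2% galactose for 4 hours, and no source used here states how much adenine or uracil the medium held. WT is thus a plasmid strain under the same induction and not an untransformed cell.

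In budding yeast, purine synthesis starts from phosphoribosyl pyrophosphate (PRPP) and runs through the ADE enzymes to inosine monophosphate, from which separate branches lead to AMP and GMP. Pyrimidine synthesis runs through the URA enzymes to UMP, UTP and CTP. The ADE genes are known to be turned on by the Bas1 and Pho2 factors when adenine is scarce, several URA genes by Ppr1 when pyrimidine intermediates build up, and IMD2 when guanine nucleotides run low.

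Values are log2 RMA signals, the background-corrected and between-array normalised brightness of a probe set, and a change is YRA1∆i minus WT. Changes were tested with limma over all 5498 probe sets, and an adjusted p is a Benjamini-Hochberg value from that fit. YRA1 itself was 13.34 ± 0.11 (SD, n = 3) in WT cells and 14.54 ± 0.08 (SD, n = 3) in YRA1∆i cells, 2.30-fold higher (adjusted p = 0.0102). The median over the tested probe sets was 11.16 to 11.18 on every array. Replicate 2 of both groups stood apart from the other arrays, and YRA1∆i replicates 1 and 3 were the closest arrays (SD of their difference 0.107, against 0.190 to 0.425 for other array pairs). The MATa genes STE2, MFA1, MFA2 and STE6 gave signals from 11.77 to 14.09, STE3 of the other mating type 7.93 to 8.67, and the MATa gene BAR1 3.14 to 3.47, below 4.70, the 95th percentile of the array's Schizosaccharomyces pombe probe sets, which served as background.

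None of the 39 genes passed a threshold, and all but a few differed little between the groups. At the study's threshold (adjusted p below 0.01 and at least 1.5-fold) 0 were called, against 0% of all tested probe sets, and at the looser one (adjusted p below 0.05, fold limit kept) 0 were called, against 0.400% of all tested. At an unadjusted p below 0.05 in limma 2 of 39 (5.13%) differed, the uracil permease gene FUR4 and the IMP dehydrogenase gene IMD2, both higher, against 16.1% of all tested probe sets (9.79% higher and 6.31% lower). Both are on the study's own list of up-regulated genes, at 1.46-fold for FUR4 and 1.37-fold for IMD2, below the 1.5-fold of its methods. The groups did not overlap for 4 of 39 genes (10.3%, FUR4, IMD2, FCY1 and CDC8), against 22.2% of all tested. The median change was 0.01 over the 39 genes and 0.01 over all tested probe sets, with 24 genes positive and 15 negative and a range from -0.43 to 0.54.

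A change that misses the threshold is not shown to be absent, so the 95% confidence intervals were set against 1.5-fold, which is 0.58 on the log2 scale. For 35 of the 39 genes (89.7%) the interval lay inside 1.5-fold in either direction, against 79.2% of all tested probe sets. The exceptions were FUR4, IMD2, the adenine deaminase gene AAH1 and IMD4. All 39 gave mean signals above the S. pombe level of 4.70, and the lowest signal on any array was 9.98. The highest was 14.48, close to the top of the array scale at 15.12, where changes can be compressed.

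**Figure D1:**
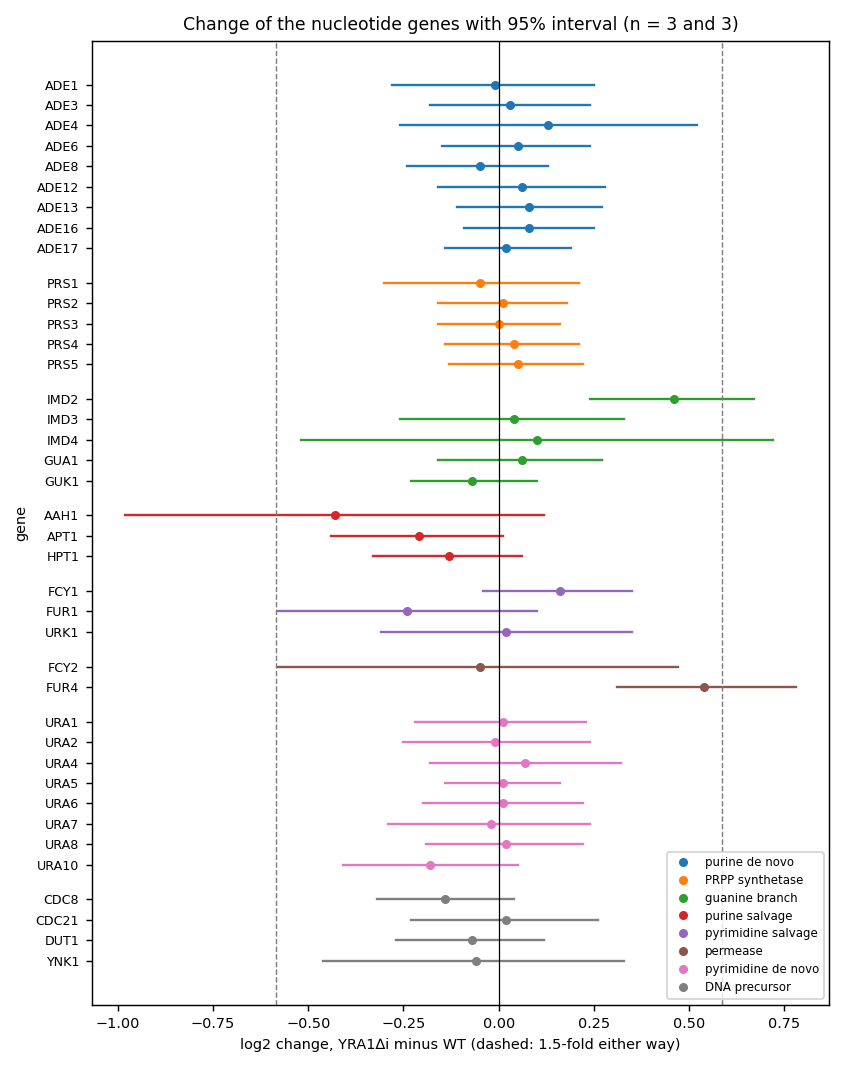
Log2 change (YRA1∆i minus WT, x axis) of each of the 39 genes (y axis), with the 95% interval as a line and colours for the roles. The dashed lines mark 1.5-fold in either direction, and the intervals of FUR4 and IMD2 are the only ones that do not include 0.

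The ADE genes of purine synthesis among the genes followed were alike in the 2 groups. These 9 genes had changes between -0.05 and 0.13, with 7 positive and a median of 0.05. Their adjusted p ran from 0.674 to 0.965, and all 9 intervals lay inside 1.5-fold. ADE4, whose product takes the committed first step from PRPP, had the widest interval (change 0.13, 95% interval -0.26 to 0.52). Its signal was 12.34, 12.07 and 12.43 in WT replicates 1, 2 and 3 and 12.62, 12.11 and 12.51 in YRA1∆i replicates 1, 2 and 3. The replicate 2 arrays were the lowest of both groups, and the groups overlapped. ADE2, mutated in this strain and outside the genes followed, differed by 0.30 (adjusted p = 0.395). Its 95% interval of -0.07 to 0.68 was not inside 1.5-fold, and pairs 1 to 3 gave 0.23, 0.45 and 0.23.

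ADE16 and ADE17 encode the paired enzymes of the last steps to inosine monophosphate. ADE16 had 12.93, 12.89 and 12.77 in WT replicates 1 to 3 and 12.93, 12.90 and 12.99 in YRA1∆i replicates 1 to 3 (change 0.08, SE 0.07). ADE17 had 13.74, 13.75 and 13.81 against 13.85, 13.70 and 13.82 (change 0.02, SE 0.07). Neither gene had a replicate number that stood apart in both groups. Their changes differed from each other by 0.06 (SE 0.08, exact permutation p = 0.6, two-sided).

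For the other ADE genes the change was -0.01 for ADE1 (SAICAR synthetase), 0.05 for ADE6 (FGAM synthetase) and -0.05 for ADE8 (GAR transformylase). ADE12 and ADE13, a synthase and a lyase that together turn inosine monophosphate into AMP, the lyase also acting earlier on the pathway, gave 0.06 and 0.08. ADE3, a cytosolic enzyme of folate metabolism that supplies the one-carbon units, gave 0.03. Their standard errors ran from 0.08 to 0.11, so every one of these changes was within 1 SE of 0.

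The 5 PRS genes encode subunits of PRPP synthetase, which feeds purine, pyrimidine and histidine synthesis and base salvage. Their changes lay between -0.05 and 0.05, with a median of 0.01, adjusted p from 0.819 to 0.995 and standard errors of 0.07 to 0.10. PRS3 had 13.26, 13.22 and 13.32 in WT replicates 1 to 3 and 13.33, 13.21 and 13.27 in YRA1∆i replicates 1 to 3. The values of the 2 groups interleave. PRS1, PRS2, PRS4 and PRS5 differed by -0.05, 0.01, 0.04 and 0.05.

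In the branch to guanine nucleotides, IMD2 was higher in YRA1∆i cells while IMD3, IMD4, GUA1 and GUK1 differed by 0.10 or less. The IMD genes encode IMP dehydrogenase, which commits inosine monophosphate to GMP, and IMD2 is the inducible copy that gives resistance to drugs against this enzyme. IMD2 (YHR216W) had 9.98, 10.19 and 10.25 in WT replicates 1 to 3 and 10.66, 10.59 and 10.53 in YRA1∆i replicates 1 to 3. Every YRA1∆i array lay above every WT array. The change was 0.46 (SE 0.09, 95% interval 0.24 to 0.67), or 1.37-fold, with an adjusted p of 0.0959, and 0.68, 0.40 and 0.28 in replicate pairs 1, 2 and 3. With arrays weighted by how closely they followed the group means it was 0.49 (adjusted p = 0.0114), past 0.05 and under 1.5-fold. The adjusted p was 0.356 with YRA1∆i replicates 1 and 3, the closest arrays, averaged, and it reached 0.386 over all alternatives.

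The IMD2 probe set is of the _x_at class, in which some probes also match other sequences, so signal from related genes may be part of it, and that part was not tested. IMD3 had 13.28, 13.06 and 13.32 in WT replicates 1 to 3 and 13.35, 13.04 and 13.38 in YRA1∆i replicates 1 to 3 (change 0.04, SE 0.12). IMD4 had 13.26, 12.66 and 13.33 against 13.43, 12.73 and 13.40 (change 0.10, SE 0.25, 95% interval -0.52 to 0.72). Both IMD3 and IMD4 were lowest on the replicate 2 array of each group, and neither set the groups apart. IMD4 shifted much more with replicate number than with group.

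Set against IMD3 on the same arrays, the change of IMD2 was larger by 0.42 (SE 0.17, with 0.62, 0.42 and 0.22 in pairs 1 to 3). The exact permutation p was 0.1 (two-sided), the smallest that 3 arrays against 3 allow, and 0.233 after Benjamini-Hochberg adjustment over 7 pairs of related genes compared this way. Against IMD4 it was larger by 0.35 (SE 0.33, exact permutation p = 0.4). IMD2 stood out for its low p in these same data, so these differences are no separate evidence. GMP synthase gene GUA1 had 13.59, 13.50 and 13.64 in WT and 13.70, 13.48 and 13.72 in YRA1∆i replicates 1 to 3 (change 0.06, adjusted p = 0.820). The guanylate kinase gene GUK1 differed by -0.07 (adjusted p = 0.713).

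**Figure D2:**
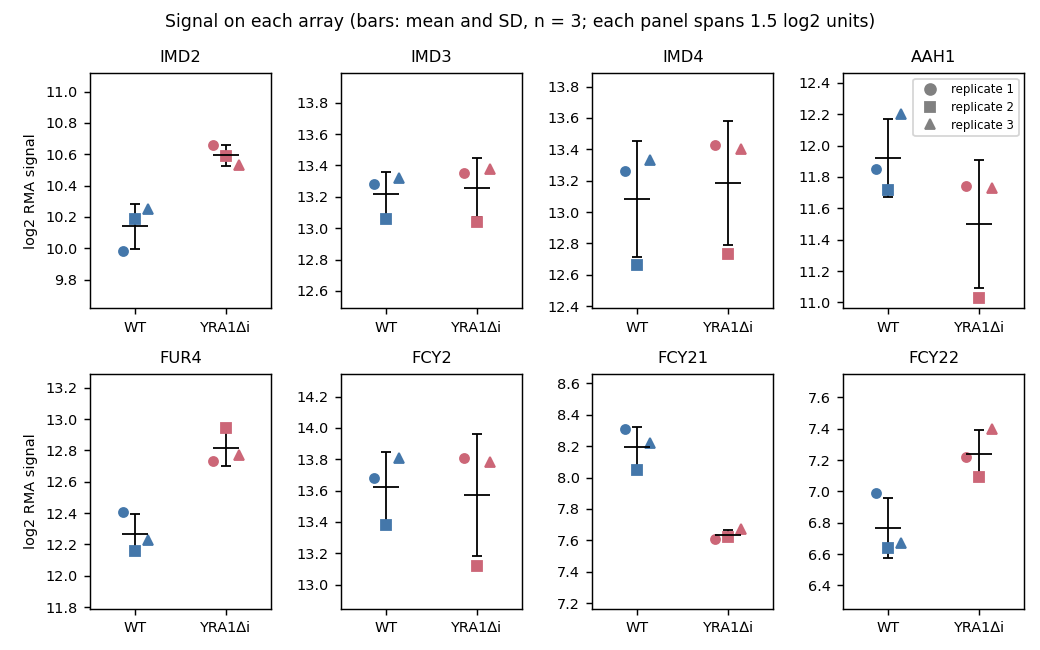
Log2 RMA signal (y axis) on each array for the 3 IMD genes, AAH1 and 4 permease genes, by group (x axis), with symbols for replicate numbers and bars for the mean and SD (n = 3). IMD2, FUR4, FCY21 and FCY22 do not overlap between groups, while IMD4, AAH1 and FCY2 are lowest on the replicate 2 arrays.

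The purine salvage genes AAH1, APT1 and HPT1 were lower in YRA1∆i cells in all 3 replicate pairs, without passing the test. AAH1, whose product turns adenine into hypoxanthine, had 11.85, 11.72 and 12.20 in WT replicates 1 to 3 and 11.74, 11.03 and 11.73 in YRA1∆i replicates 1 to 3. The YRA1∆i replicate 2 array was the lowest by far, and WT replicate 2 lay just below the highest YRA1∆i array. The change of AAH1 was -0.43 (SE 0.23, 95% interval -0.98 to 0.12, adjusted p = 0.427), with -0.12, -0.69 and -0.48 in pairs 1 to 3, and without YRA1∆i replicate 2 it was -0.19.

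APT1, the adenine phosphoribosyltransferase, had 12.90, 12.80 and 13.07 in WT replicates 1 to 3 and 12.81, 12.63 and 12.68 in YRA1∆i replicates 1 to 3. Its groups met at a single array, WT replicate 2 lying just under YRA1∆i replicate 1. The change was -0.21 (SE 0.09, adjusted p = 0.335). HPT1, which salvages hypoxanthine and guanine, had 13.13, 12.99 and 13.22 against 13.03, 12.94 and 12.98, a change of -0.13 (SE 0.08, adjusted p = 0.507). Over the 3 salvage genes the median change was -0.21, beside 0.01 over all tested probe sets, and 3 of 3 were lower in each pair, as were 1281 of the 5498 tested probe sets. Outside the 40 genes, the xanthine phosphoribosyltransferase gene XPT1 differed by -0.09, 0.01 and -0.23 in pairs 1 to 3 and the purine nucleoside phosphorylase gene PNP1 by 0.03, 0.12 and 0.13 (adjusted p = 0.830 and 0.552).

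The uracil and cytosine side of salvage was mixed. FCY1, a cytosine deaminase, had 13.13, 13.31 and 13.23 in WT replicates 1 to 3 and 13.34, 13.48 and 13.32 in YRA1∆i replicates 1 to 3 (change 0.16, SE 0.08, adjusted p = 0.409). All YRA1∆i arrays lay above all WT arrays, but by only the distance between 13.31 and 13.32 at the nearest point. FUR1, the uracil phosphoribosyltransferase that acts on uracil once it is inside the cell, had 13.22, 12.92 and 13.29 in WT and 12.97, 12.68 and 13.06 in YRA1∆i replicates 1 to 3.

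Paired by label number, FUR1 was lower in YRA1∆i cells by nearly the same amount, -0.25, -0.23 and -0.23. Replicate 2 was the lowest array of both groups. The even size depends on that pairing. Over the genes followed here, deviations of WT replicate 1 correlated at 0.06 with YRA1∆i replicate 1 and 0.48 with replicate 3. Those of WT replicate 3 correlated at 0.64 with YRA1∆i replicate 3 and 0.83 with replicate 1. With these partners exchanged, FUR1 went less evenly from 13.22 to 13.06 and from 13.29 to 12.97. The change of FUR1 was -0.24 (SE 0.14), with an adjusted p of 0.484. It was 0.0882 with replicate number as a block, which rests on the pairing by label number. The uridine and cytidine kinase gene URK1 differed by 0.02 (adjusted p = 0.966).

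The uracil permease gene FUR4 (YBR021W) had the lowest p of the 39 genes. It had 12.41, 12.16 and 12.23 in WT replicates 1 to 3 and 12.73, 12.94 and 12.77 in YRA1∆i replicates 1 to 3. All 3 YRA1∆i arrays lay above all WT arrays. The change was 0.54 (SE 0.10, 95% interval 0.31 to 0.78), or 1.46-fold, with an adjusted p of 0.0817, and 0.32, 0.78 and 0.54 in pairs 1 to 3. With arrays weighted by how closely they followed the group means the adjusted p was 0.00844 and the change 0.43. Without replicate 2 of both groups they were 0.0370 and 0.43, so FUR4 passed 0.05 in these fits while staying under 1.5-fold. The adjusted p was 0.321 with YRA1∆i replicates 1 and 3, the closest arrays, averaged, and it reached 0.332 over all alternatives.

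FCY2, the permease for adenine, guanine, hypoxanthine and cytosine, had 13.68, 13.38 and 13.81 in WT replicates 1 to 3 and 13.81, 13.12 and 13.78 in YRA1∆i replicates 1 to 3. Its replicate 2 arrays were the lowest of each group, and the groups overlapped (change -0.05, SE 0.21, adjusted p = 0.931). The change of FUR4 exceeded that of FCY2 by 0.60 (SE 0.31, exact permutation p = 0.1, or 0.233 adjusted over the 7 pairs, 0.1 being the smallest this design allows). FUR4 stood out for its low p in these same data, so this is no separate evidence.

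FUR4 lies next to the galactose genes, and its neighbours were therefore examined, a choice made after the values were seen. In the gene order of the RefSeq R64 table, GAL7, GAL10 and GAL1 precede FUR4, with GAL1 directly before it on the same strand, and POA1 follows on the same strand. GAL7, GAL10 and GAL1 differed by -0.06, 0.01 and -0.07 (adjusted p = 0.710, 0.962 and 0.669), at signals of 14.60 to 14.75 in the group means, near the top of the scale. POA1, which encodes a phosphatase of ADP-ribose 1''-phosphate, had 11.09, 11.49 and 11.15 in WT replicates 1 to 3 and 9.77, 10.73 and 9.83 in YRA1∆i replicates 1 to 3.

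All YRA1∆i arrays were thus below all WT arrays for POA1, the reverse of the order seen for FUR4 beside it. The POA1 difference was -1.13 (SE 0.28, adjusted p = 0.139), and the adjusted p was 0.0337 with the replicate block and 0.0119 without YRA1∆i replicate 2, with 0.00229 to 0.477 over all alternatives. CHS3 and SCO2, further along, differed by -0.15 and -0.26 (adjusted p = 0.807 and 0.588). Whether transcripts that run on from GAL1 add to the FUR4 signal was not tested.

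**Figure D3:**
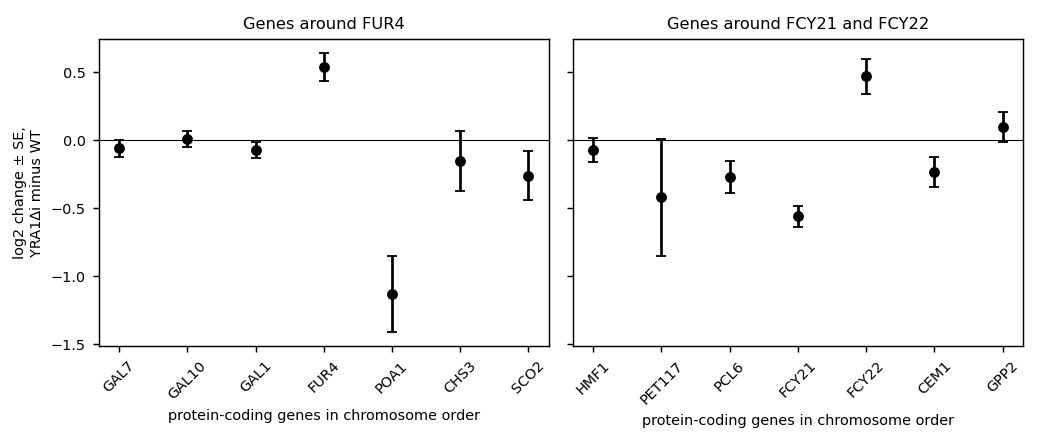
Log2 change (YRA1∆i minus WT, y axis; bars are the SE) of consecutive protein-coding genes in chromosome order (x axis) around FUR4 on the left and around FCY21 and FCY22 on the right. FUR4 at 0.54 stands between GAL1 at -0.07 and POA1 at -1.13, and FCY21 at -0.56 beside FCY22 at 0.47.

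The URA genes followed here were as level as the ADE genes followed. Over the 8 URA genes changes ran from -0.18 to 0.07 with a median of 0.01, adjusted p ran from 0.428 to 0.987, and all 8 intervals lay inside 1.5-fold. URA2, the feedback-controlled enzyme of the opening steps, differed by -0.01, and URA4, the dihydroorotase, by 0.07. The dihydroorotate dehydrogenase gene URA1 had 14.48, 14.27 and 14.46 in WT replicates 1 to 3 and 14.48, 14.28 and 14.47 in YRA1∆i replicates 1 to 3.

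Same-numbered URA1 arrays of the 2 groups differed by 0.01 or less, whereas replicate 2 was lower in both. URA5 and URA10 encode the major and the minor orotate phosphoribosyltransferase. URA10 had 10.54, 10.78 and 10.62 in WT and 10.59, 10.36 and 10.45 in YRA1∆i replicates 1 to 3, a change of -0.18 (SE 0.10, adjusted p = 0.428), and only YRA1∆i replicate 1 reached into the WT range. URA5 differed by 0.01 (SE 0.06), and the difference between these 2 changes was 0.19 (SE 0.12, exact permutation p = 0.3). URA6, the uridylate kinase, differed by 0.01, and the CTP synthase genes URA7 and URA8 by -0.02 and 0.02.

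Of the genes for DNA precursors, CDC8 was lower on every YRA1∆i array. CDC8, the thymidylate kinase, had 10.45, 10.65 and 10.51 in WT replicates 1 to 3 and 10.42, 10.42 and 10.36 in YRA1∆i replicates 1 to 3, a change of -0.14 (SE 0.07, adjusted p = 0.439). WT replicate 1 lay only just above the nearest YRA1∆i arrays. YNK1, the nucleoside diphosphate kinase, had 13.47, 13.72 and 13.38 against 13.31, 13.78 and 13.28 (change -0.06, adjusted p = 0.886). Here replicate 2 was the highest array of each group. Thymidylate synthase gene CDC21 differed by 0.02 and the dUTPase gene DUT1 by -0.07 (adjusted p = 0.956 and 0.729).

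Most of these genes differed more between replicate 2 and the other replicates than between the groups. The mean offset of replicate 2 from replicates 1 and 3 was larger in size than the group change for 28 of the 39 genes (71.8%), against 60.8% of all tested probe sets. Replicate 2 was the lowest array of both groups for 23 of the 39 genes (59.0%) and the highest of both for 4 (10.3%), where all tested probe sets gave 32.4% and 31.9%. The median offset of the 39 genes was -0.13 in WT and -0.13 in YRA1∆i cells, beside 0.01 and -0.01 over all tested.

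The 5 genes with the largest mean offset in size were IMD4, FCY2, AAH1, YNK1 and ADE4. The offset (log2) was -0.63 in WT and -0.68 in YRA1∆i cells for IMD4, -0.37 and -0.67 for FCY2, -0.30 and -0.70 for AAH1, and -0.32 and -0.45 for ADE4. YNK1 went the other way, with 0.30 and 0.48. IMD2 and FUR4 had no offset shared by the groups, with 0.07 and -0.01 for IMD2 and -0.16 and 0.18 for FUR4. No label says what replicate 2 had in common, so no cause can be given, and these offsets are descriptive.

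**Figure D4:**
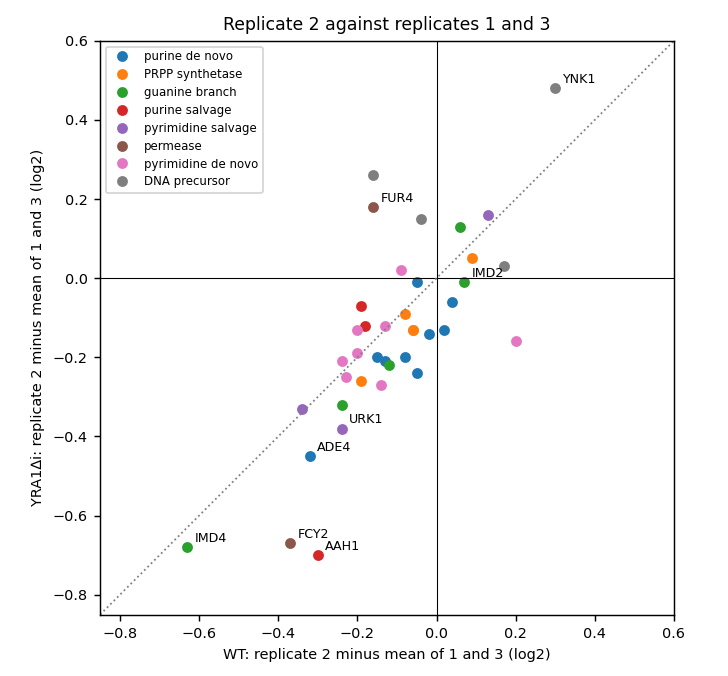
Offset of replicate 2 from the mean of replicates 1 and 3 (log2) in WT cells (x axis) and in YRA1∆i cells (y axis) for the 39 genes, 1 point per gene, coloured by role, with equality as the dotted line. Of the genes, 26 lie below 0 in both groups and 5 above 0 in both; IMD4 and YNK1 lie at opposite ends.

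With replicate number as a block, which removes such offsets, 6 of the 39 genes had an unadjusted p below 0.05 in limma, against 25.5% of all tested probe sets. They were FUR4, IMD2, FUR1, FCY1, APT1 and AAH1. None passed an adjusted p of 0.05 with the block, the lowest being 0.0664 for FUR4, against 2.60% of all tested, or 1.44% with the fold limit of 1.5. Without WT replicate 2 the count at an unadjusted p below 0.05 was 5.

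Other genes of nucleotide metabolism outside the 40 were measured for context, 32 of 34 on a list. Of these, 0 passed the looser threshold, against 0.400% of all tested, and 7 (21.9%) had an unadjusted p below 0.05, 5 higher and 2 lower, against 16.1% of all tested. FCY21 had the lowest p of the list, and it lies beside FCY22 on the same strand, both being relatives of the FCY2 permease gene. FCY21 had 8.31, 8.05 and 8.22 in WT replicates 1 to 3 and 7.61, 7.62 and 7.67 in YRA1∆i replicates 1 to 3, while FCY22 had 6.99, 6.64 and 6.67 against 7.22, 7.09 and 7.40.

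For FCY21 every YRA1∆i array was below every WT array and for FCY22 every one was above. The change was -0.56 for FCY21 (SE 0.08, adjusted p = 0.0647) and 0.47 for FCY22 (SE 0.13, adjusted p = 0.159). With a second quantile normalization over the tested probe sets it was -0.76 for FCY21 and only 0.15 for FCY22 (adjusted p = 0.0520 and 0.690). The adjusted p of FCY21 was 0.0432 with the replicate block and 0.0459 without WT replicate 2, and 0.00237 to 0.315 over all alternatives. The 2 changes differed by 1.03 (SE 0.10, with 0.93, 0.88 and 1.28 in pairs 1 to 3). The exact permutation p was 0.1, the smallest possible here, and 0.233 over the 7 pairs. Both genes were named for their low p in these same data, so this difference is no separate evidence. Both are related in sequence to FCY2, and sharing of probes between them was not tested.

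Of the genes for ribonucleotide reductase, which makes deoxynucleotides from ribonucleotides, none passed the test. RNR2 differed by 0.24 (adjusted p = 0.159), RNR3 by 0.64 (adjusted p = 0.256), RNR4 by 0.32 (adjusted p = 0.0959) and RNR1 by 0.04 (adjusted p = 0.938, with -0.36, 0.25 and 0.23 in pairs 1 to 3). RNR2, RNR3 and RNR4 were higher in all 3 pairs, as were 1500 of the 5498 tested probe sets. These 3 of 4 genes had an unadjusted p below 0.05 in limma, against 16.1% of all tested. The uridine nucleosidase gene URH1 differed by -0.21 (adjusted p = 0.267). Of the regulators, PHO2 differed by 0.24 (SE 0.09, adjusted p = 0.251), and BAS1, PPR1 and GCN4 by -0.01, 0.11 and 0.07 (adjusted p = 0.986, 0.778 and 0.674). The groups did not overlap for PHO2 and GCN4, 2 of the 4 regulators, against 22.2% of all tested probe sets. The genes mutated in this strain, ADE2 and URA3, still gave signal, and differed by 0.30 (SE 0.15, adjusted p = 0.395) and 0.06 (SE 0.11, adjusted p = 0.842).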

How the data were processed

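Each culture gave 1 array, hybridised with biotin-labelled cRNA. The authors deposited 1 table of log2 values for 10928 probe sets on 6 arrays. They were made by RMA, as the study's methods and the processing notes of the submitters state, and limma is also named, with no version. Because RMA gives every array the same distribution, a shift of most transcripts at once is hidden. Precision is limited by the number of arrays.

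Names came from the annotation of the platform, updated with the RefSeq R64 gene table. Of 7245 annotated probe sets, 5498 matched an S. cerevisiae gene and were all tested, and 1747 were taken as S. pombe. No member had more than 1 probe set. IMD1, MFALPHA1 and MFALPHA2 had no named probe set and were not analysed here, and another gene of the pathway list is not reported here.

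The comparison of groups used lmFit and eBayes of limma 3.58.1 (R 4.3.3) with group as the only term, adjusted over all 5498 probe sets, with the thresholds of the study's methods, and the fit was tested on simulated data. Changes of related genes were compared by exact permutation over 20 groupings. Arrays with the same number deviated together from their group means, with correlations of 0.34, 0.69 and 0.30 for numbers 1, 2 and 3, so the labels' replicate numbers were taken as pairs and used as a block in an alternative. WT replicate 1 correlated more with YRA1∆i replicate 3 (0.66), and WT replicate 3 with YRA1∆i replicate 1 (0.58), than with their own numbers, so number 2 alone stood apart as a pair. The rule named the 10 members with the lowest p, the IMD genes, the permeases and the brightest member of each role with values on every array, and outside the members YRA1, 4 regulators, ADE2, URA3 and the 5 pathway genes of lowest p. RNR1, RNR3, URH1, XPT1, PNP1 and the neighbours of FUR4 were named after their values were seen. The members and lists were chosen with earlier results of these data known. Also tried were array weights, robust eBayes, an intensity trend, leaving out arrays, testing all probe sets, leaving out dim ones, equalising array medians and a second quantile normalization.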

Additional observations from a re-analysis of the deposited data

How the results depend on the processing

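No member passed the study's threshold or the looser one under any of the alternatives tried. The median change of the members ran from -0.04 without WT replicate 2 to 0.07 without YRA1∆i replicate 2. Role medians near 0 could change sign. Without WT replicate 2 the median was -0.04 for the guanine branch, -0.06 for pyrimidine salvage and -0.05 for pyrimidine synthesis, against 0.06, 0.02 and 0.01 in the fit reported. For purine salvage it stayed between -0.28 and -0.14. The count at an unadjusted p below 0.05 was 2 in the fit reported, and 6 with the replicate block, 5 with array weights, 5 without replicate 2 of both groups, and 2 to 5 with 1 array left out (5 without WT replicate 2). An adjusted p of 0.05 was crossed by 2 of the 39 members, IMD2 with array weights (0.0114) and FUR4 with array weights (0.00844) and without replicate 2 (0.0370). Over all alternatives the adjusted p ran from 0.0114 to 0.386 for IMD2 and from 0.00844 to 0.332 for FUR4. YRA1, at 0.0102 in the fit reported, missed the study's threshold and passed the looser one. It lost that looser call without WT replicate 1, WT replicate 3, YRA1∆i replicate 1 or YRA1∆i replicate 3 (adjusted p = 0.0989, 0.0802, 0.109 and 0.112). The same held with YRA1∆i replicates 1 and 3 averaged (0.110), a setting added after the data were seen. YRA1 fell below 0.01 with array weights (0.000441), the intensity trend (0.00541), all probe sets tested (0.00912) and dim ones left out (0.00995). It also did so without replicate 2 of both groups (0.00329) or without YRA1∆i replicate 2 (0.00763). RNR3 passed 0.05 without YRA1∆i replicate 2 (0.0178) and FCY21 without WT replicate 2 (0.0459). Without replicate 2 of both groups, RNR2 (0.0395), RNR3 (0.00727), RNR4 (0.0273), FCY21 (0.0119), POA1 (0.00229) and SCO2 (0.0290) passed 0.05, and RNR4 passed it with the intensity trend (0.0477). Leaving out replicate 2 keeps only YRA1∆i replicates 1 and 3, the closest arrays, in that group. With them averaged, the adjusted p was 0.548 for RNR2, 0.630 for RNR3, 0.405 for RNR4 and 0.315 for FCY21. Array weights took RNR2 (0.0113), RNR3 (0.00635), RNR4 (0.00636), FCY21 (0.00237), FCY22 (0.0278), PHO2 (0.0406), POA1 (0.00249) and SCO2 (0.0455) past 0.05, while the second quantile normalization left FCY22 at 0.15 (0.690). The replicate block changed no other call than those of FCY21 and POA1 among the genes named.

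For 19 of the 39 members, whose changes lay near 0, the sign turned in at least 1 alternative, and the cause was not tested. With array weights the change was 0.06 for ADE1, 0.09 for FCY2, 0.04 for URA2, -0.01 for URA5, -0.0067 for URA6, 0.01 for URA7, -0.0043 for URA8, -0.11 for CDC21, 0.13 for BAS1 and -0.02 for RNR1. Without replicate 2 it was 0.05 for ADE1, 0.05 for FCY2, 0.04 for URA2, -0.02 for URA5, -0.0070 for URA8, -0.12 for CDC21, 0.07 for BAS1 and -0.06 for RNR1. With the second quantile normalization it was 0.0032 for URA2 and 0.0040 for URA7. With YRA1∆i replicates 1 and 3 averaged it was -0.00065 for ADE17, -0.01 for PRS3, -0.02 for IMD3, -0.01 for IMD4, -0.04 for URK1, -0.02 for URA1, -0.01 for URA6, -0.0035 for URA8, 0.02 for YNK1 and -0.0015 for GAL10. With 1 array left out it ran from -0.09 to 0.06 for ADE1, -0.01 to 0.10 for ADE3, -0.0083 to 0.07 for ADE17, -0.11 to 0.04 for PRS1, -0.03 to 0.04 for PRS2, -0.03 to 0.03 for PRS3, -0.04 to 0.14 for IMD3, -0.11 to 0.33 for IMD4, -0.06 to 0.14 for URK1, -0.18 to 0.17 for FCY2, -0.06 to 0.07 for URA1, -0.05 to 0.09 for URA2, -0.0056 to 0.14 for URA4, -0.02 to 0.04 for URA5, -0.06 to 0.05 for URA6, -0.10 to 0.06 for URA7, -0.05 to 0.06 for URA8, -0.07 to 0.07 for CDC21, -0.23 to 0.04 for YNK1, -0.13 to 0.19 for BAS1, -0.04 to 0.13 for URA3, -0.13 to 0.22 for RNR1, -0.0065 to 0.03 for GAL10 and -0.34 to 0.04 for CHS3.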
